A study of Drosophila melanogaster with 24 samples.

Results

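The comparison described here is that of heads of AD flies with heads of WT flies at 3 days post eclosion, the youngest adults of a series that also sampled days 10, 20 and 30. It takes in 6 of the 24 libraries, 3 of AD and 3 of WT, chosen by their genotype and age labels alone, and it follows every annotated gene rather than a chosen pathway. All flies were males, and each library was made from the poly-A RNA of many pooled heads of *Drosophila melanogaster*. The WT flies came from a cross of the w1118 strain with the elav-GAL4 line c155, and the AD flies from a cross of a UAS-Aβ42 line in the w1118 background with the same elav-GAL4 line. The sample labels call the AD genotype hAPP transgenic, whereas the study's methods describe Aβ42, the peptide cut from the amyloid precursor protein. Both genotypes carried the driver and were of the same age, so the AD flies differed from the WT flies by the UAS transgene together with its insertion site and the chromosomes that came with it. Effects of the peptide, the insertion and the surrounding genetic background cannot be told apart with 1 transgenic line.

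In the GAL4/UAS system a yeast transcription factor, GAL4, is made under a fly promoter and switches on any gene placed behind its binding sites. The elav promoter is active in neurons throughout the nervous system, so that the human peptide is made in neurons while RNA was taken from whole heads, which also hold photoreceptors, glia, muscle, fat body, blood cells and cuticle. Secreted Aβ42 accumulates with age in this kind of model, and flies carrying it are known to lose climbing ability and neurons as they grow old. At day 3 the adults are young, and the comparison addresses which transcripts already differed between genotypes before the later time points.

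The libraries held between 14314979 and 25870046 expected counts in all, the RSEM estimate of the number of fragments that came from each gene. Replicate 1 of either genotype was the deepest, with 25870046 in AD and 24756100 in WT, against 14314979 to 15722456 in the other 4. Unannotated genes, which were added during the authors' processing, have other lengths in the files of these 2 libraries than in those of replicates 2 and 3, as they do in 6 of the 24 files of the series, so replicate 1 was treated as the product of another processing run and differences were also taken within each replicate number. Markers of the head were present everywhere: CPM, the counts scaled to a common library total, lay between 24258 and 38780 for *ninaE*, the main photoreceptor rhodopsin, and between 53.3 and 82.9 for the glial factor *repo*. CPM of *elav*, the neuronal RNA-binding protein whose promoter drives GAL4, were 95.2, 170 and 191 in AD replicates 1, 2 and 3 and 113, 167 and 172 in the WT replicates. The eggshell gene *Cp36* was at 0 in every library. Transcripts of the human transgene were not analysed here. The labels do not say that replicates came from separate cultures, so p-values measure the spread between these samples, part of which may be technical.

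Several libraries stood apart in transcripts of tissues that lie outside the head, and this bears on most of the day 3 list. In WT replicate 1, 286 genes lay more than 2 log2 CPM above all of the other 5 libraries, whereas the other libraries had between 0 and 4 such genes each. These 286 genes made up 0.633% of the counts of WT replicate 1 and 0.0121% to 0.0218% of those of the other libraries. They included genes of sperm development. For *Mst87F*, a sperm tail protein, CPM were 52.6 in WT replicate 1 and 0 in WT replicates 2 and 3, against 0.388, 0.064 and 0.21 in AD. For *S-Lap7*, one of the sperm leucyl aminopeptidases, WT replicate 1 had 141 CPM, while the other libraries had at most 1.12. *loopin-1*, of the same family, had 171 CPM in that library and at most 2.02 elsewhere. Over a list of 15 testis and accessory gland genes, summed CPM were 564, 0.265 and 1.47 in WT and 7.75, 70.7 and 0.912 in AD. None of the 15 was at 0 in WT replicate 1, while 13 and 10 were at 0 in WT replicates 2 and 3 and 1, 8 and 9 in the AD replicates.

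AD replicate 2 stood apart in another way. Several accessory gland and gut transcripts were high in it and in WT replicate 1, and near 0 in the rest. CPM of *Acp36DE*, a seminal fluid protein, were 37.9 in AD replicate 2 and 132 in WT replicate 1, with at most 1.43 in the other 4. CPM of *betaTry*, a digestive trypsin, were 106 and 22.6 in these libraries and at most 0.31 in the others. Over 23 gut enzyme genes, the summed CPM of AD ran from 3.48 to 664 and that of WT from 0.910 to 273. The gut list had 7, 0 and 12 members at 0 in AD replicates 1, 2 and 3 and 0, 15 and 16 in the WT replicates.

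WT replicate 2 was high in yolk protein transcripts, which females make in fat body and ovary. *Yp1* had normalized counts of 646 in WT replicate 2, against 20.0 and 28.1 in WT replicates 1 and 3 and 10.9, 8.79 and 42.2 in the AD replicates. Normalized counts here are expected counts scaled by the library sizes adjusted with edgeR's trimmed mean of M-values. CPM of *Yp2* were 18.9 in WT replicate 2 and at most 1.62 elsewhere, and those of *Yp3* were 109 there against 71.3 to 97.8 in the other 5 libraries. *fit*, a further gene of the female head fat body, was not raised, at 8.20 CPM in WT replicate 2 against 5.11 to 29.5 elsewhere. Ovary markers did not share the pattern, since *Vm26Ab* had 1 count in WT replicate 2 and *osk* none. The fitted log2 fold change of *Yp1* was −3.54 with all libraries, with a within-number difference of −0.77, −5.91 and 0.56 for replicates 1, 2 and 3, and −0.22 without WT replicate 2.

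**Figure D1:**
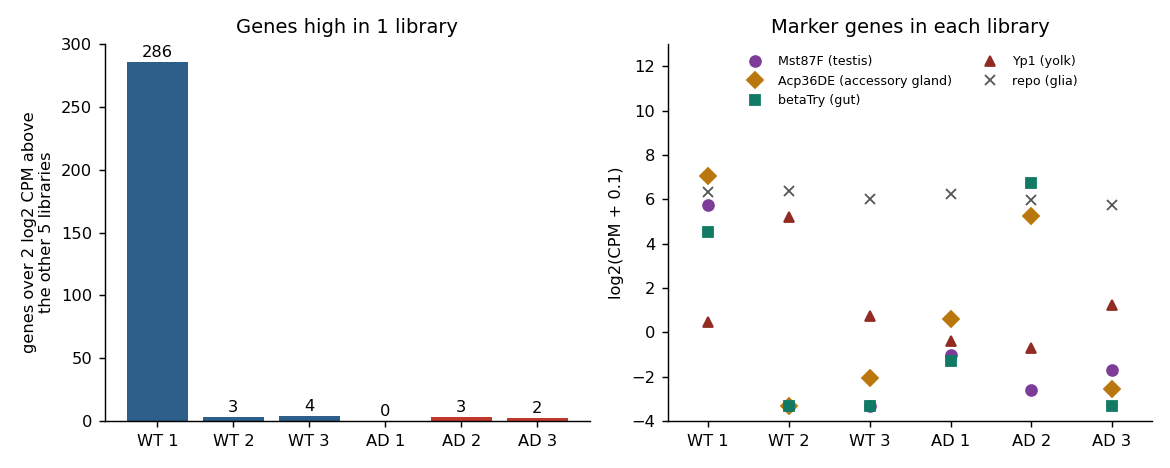
The left panel gives, for each day 3 library, the number of genes more than 2 log2 CPM above the other 5 libraries, and the right panel gives log2(CPM + 0.1) of 5 marker genes in each library. WT replicate 1 has 286 such genes and the highest *Mst87F* and *Acp36DE*, AD replicate 2 the highest *betaTry*, and WT replicate 2 the highest *Yp1*, whereas *repo* is level.

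Of 13700 annotated genes listed in any library, 10479 had enough counts to be tested. Under edgeR's quasi-likelihood test fitted on all 24 libraries, 3 genes passed the study's threshold of an absolute log2 fold change above 1 and a Benjamini-Hochberg adjusted p below 0.05, which is 0.0286% of those tested, and all 3 were higher in AD. They were *w*, *Cyp6a2* and *Cyp6w1*. At an unadjusted p below 0.05 there were 372 genes, 3.55% of those tested, and 304 of them were lower and 68 higher in AD. The lower side largely rested on WT replicate 1, as 197 of the 372 were among its 286 genes. All 286 had a negative log2 fold change, with a median of −3.13, a sign that follows from how they were chosen. Their median AD minus WT difference over replicates 2 and 3 was 0, which genes without counts in those libraries take by construction. A fit without WT replicate 1 gave 335 genes at an unadjusted p below 0.05, with 213 higher and 122 lower, and none past the threshold. Omitting the 286 genes left 182 at that p and the same number of 3 past the threshold. The part of sperm, gut or yolk transcripts in other differences was not tested.

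The lower-side excess was not found within every replicate number. For replicate 1, 544 genes were more than 2 log2 lower in AD and 14 higher. The order turned for replicate 2, with 31 lower and 209 higher, and replicate 3 gave 74 and 68. The SD of the differences over genes was 0.97, 0.75 and 0.55 for replicates 1, 2 and 3. Across genes, which are not independent replicates and share the library's depth, the AD minus WT differences of replicates 1 and 2 had a Pearson r of −0.26, and those of replicates 2 and 3 one of 0.070.

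**Figure D2:**
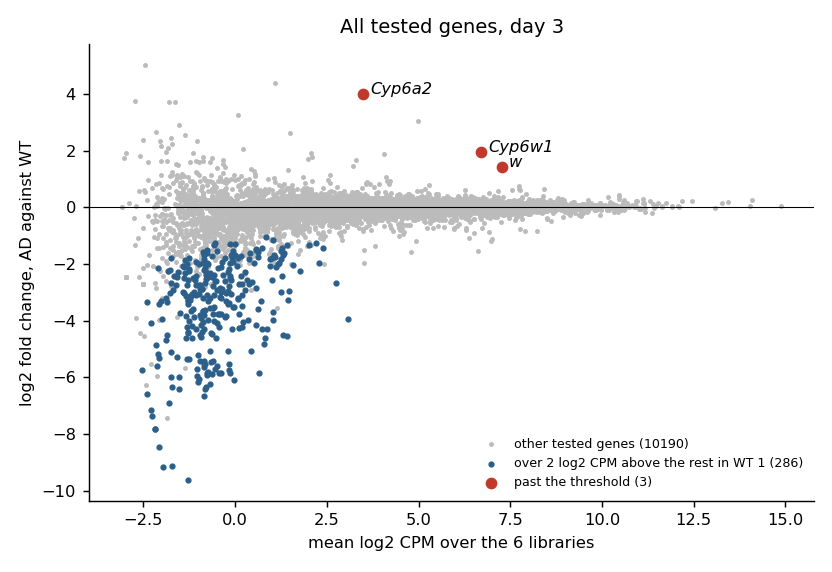
Each point is 1 of the 10479 tested genes, with the mean log2 CPM of the 6 libraries on the x axis and the log2 fold change of AD against WT on the y axis. The 286 genes high in WT replicate 1 lie at low expression and below 0, and the 3 genes past the threshold lie above 0.

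The genes past the threshold are an eye colour transporter and a pair of cytochrome P450 enzymes. *w* (FBgn0003996), the white gene, encodes an ABC transporter that carries pigment precursors in the eye, and shortened copies of it are commonly used to mark transgene insertions. Its normalized counts were 4097, 4322 and 4295 in AD replicates 1, 2 and 3 and 1381, 1811 and 1574 in the WT replicates. Every AD library exceeded every WT library, with means of 4238 ± 122 and 1589 ± 215 (SD, n = 3). The log2 fold change was 1.42 (SE 0.18, edgeR adjusted p = 0.00298), a 2.67-fold difference, and it was 1.57, 1.25 and 1.45 within the replicate numbers. The gene lies on chromosome X at 2790599 to 2796466 of the release 6 genome and overlaps *kirre* on the opposite strand. The strand setting of the counting is not given in the sources used here, so reads of overlapping genes cannot be told apart. Since a marker copy carried by a transgene gives the same reads, the endogenous gene and marker copies cannot be told apart either.

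Cytochrome P450 enzymes are haem proteins that oxidise hormones, fatty acids, plant toxins and insecticides, and *Cyp6a2* is best known in flies for high expression in insecticide resistant strains. *Cyp6a2* (FBgn0000473) had normalized counts of 1003, 667 and 683 in AD and of 58.0, 64.96 and 22.96 in WT. All AD libraries were far above all WT libraries, and the means were 784 ± 189 and 48.6 ± 22.5 (SD, n = 3). Its log2 fold change of 3.99 (SE 0.59, edgeR adjusted p = 0.00938) is a 15.9-fold difference, with 4.07, 3.32 and 4.78 within the replicate numbers. The gene lies on chromosome arm 2R at 6779749 to 6781491, inside the span of *Epac* on the same strand.

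*Cyp6w1* (FBgn0033065), another member of the CYP6 family, had normalized counts of 2967, 2245 and 5655 in AD and of 1055, 612 and 1154 in WT. The ranges did not overlap, but AD replicate 3 was far above the other AD libraries, so that the SD of AD was 1797 around a mean of 3622, against 288 around 941 in WT (n = 3 each). The log2 fold change was 1.94 (SE 0.34), which edgeR placed just inside the threshold with an adjusted p of 0.0483, and the within-number differences were 1.49, 1.87 and 2.29. *Cyp6w1* lies on 2R at 6173684 to 6176195, within 1 Mb of *Cyp6a2*. Without WT replicate 1 the adjusted p-values of edgeR became 0.058 for *w*, 0.096 for *Cyp6a2* and 0.18 for *Cyp6w1*, with log2 fold changes between 1.32 and 1.55, 3.42 and 5.11, and 1.49 and 2.23 over all alternatives. No gene passed without WT replicate 3 either, and *Cyp6w1* alone of the 3 no longer passed without WT replicate 2 or without AD replicate 3. The adjusted p over those alternatives ran from 1.39e-10 to 0.389 for *w*, from 5.39e-10 to 0.389 for *Cyp6a2* and from 6.04e-06 to 1.0 for *Cyp6w1*.

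Beyond the threshold, each AD library lay above each WT library, with a difference of 1 sign within all replicate numbers, for 187 genes (1.78% of those tested), and below for 188 genes (1.79%). Of the 188, 16 were among those raised in WT replicate 1. These counts are a description of the 6 libraries without a test. Of the genes tested, 14 (0.134%) were more than 1 log2 higher in AD within all 3 replicate numbers and 20 (0.191%) more than 1 log2 lower. The 14 hold *w*, *Cyp6a2*, *Cyp6w1*, *Ldh*, *CG14329*, *Cyp304a1*, *Cyp309a2*, *Hsp70Bc*, *snsl* and *CG42329*, with 4 further genes of at most 14.5 normalized counts in any library.

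*Ldh* encodes lactate dehydrogenase, which turns pyruvate from glycolysis into lactate and is used in flies by glia and muscle. Its normalized counts were 521, 1316 and 3497 in AD and 186, 190 and 270 in WT. The AD libraries were all higher but spread widely, and the differences were 1.47, 2.78 and 3.68 log2 for numbers 1, 2 and 3. The log2 fold change of 3.04 (SE 0.64) was, among the higher genes named here, below that of *Cyp6a2* only, and *Ldh* did not pass the edgeR threshold (adjusted p = 0.346), whereas DESeq2 placed it past (adjusted p = 1.18e-04), as did edgeR without AD replicate 1 (adjusted p = 0.0493), and the adjusted p over all alternatives reached 1.0. *MFS3*, a membrane transporter of the major facilitator family, had 136, 245 and 445 normalized counts in AD and 104, 114.8 and 75.3 in WT, and the lowest AD library was close to the highest WT library. Its log2 fold change was 1.47 (SE 0.42, edgeR adjusted p = 0.966).

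Other genes on the higher side had smaller counts or smaller differences, and none of them passed the threshold. *CG14329*, whose function is not annotated in the files, had 122, 84.6 and 132 normalized counts in AD and 18.0, 12.8 and 24.2 in WT, with a log2 fold change of 2.62 (SE 0.63, edgeR adjusted p = 0.778). All AD libraries were well above all WT libraries. *Acf*, a subunit of a chromatin remodelling complex that spaces nucleosomes, had 412, 457 and 369 in AD and 290, 168 and 187 in WT, a log2 fold change of 0.93 (SE 0.23). *Lgr1*, a receptor for a glycoprotein hormone, had 721, 675 and 536 in AD and 414, 457 and 421 in WT, a log2 fold change of 0.58 (SE 0.17). For *Acf* and *Lgr1*, for the tetraspanin *Tsp42Ef* (log2 fold change 0.48) and for *CG17803* (0.54) the groups did not overlap, and the adjusted p-value of edgeR was 0.966.

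The 20 genes on the lower side hold 3 antimicrobial peptide genes, *Obp83a*, *Obp83b*, *CG13690*, *CG42822*, *CG17005*, *CG4757*, *CG44385* and 10 further genes whose highest count, of 36.7 to 211, was in WT replicate 1. *CG13690*, which overlaps *ebi* on the opposite strand, had normalized counts of 3.84, 3.29 and 2.64 in AD and of 12.9, 18.6 and 22.96 in WT, a log2 fold change of −2.40 (SE 0.72, edgeR adjusted p = 0.966). *CG42822* had 7.05, 10.98 and 7.91 in AD and 23.2, 30.2 and 31.9 in WT, a log2 fold change of −1.70 (SE 0.52, edgeR adjusted p = 0.966). Both had few counts, and their groups did not overlap.

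Among genes with a mean of at least 50 normalized counts, those of smallest p on the lower side had log2 fold changes between −1 and 0, apart from the genes that were high in WT replicate 1 and from 1 antimicrobial peptide gene. *CG6654* had normalized counts of 853, 862 and 728 in AD and of 1324, 1420 and 1421 in WT, and replicates were tight on both sides, at 814 ± 74.8 and 1388 ± 55.6 (SD, n = 3). Its log2 fold change was −0.77 (SE 0.18, edgeR adjusted p = 0.778). *CG6912* had 1464, 1223 and 1516 in AD and 2199, 2082 and 2645 in WT, a log2 fold change of −0.72 (SE 0.23). Both lie on chromosome arm 3R, at 15211277 to 15213658 and at 15135138 to 15137004, *CG6654* overlapping *Mau2* on the opposite strand. The gene listed only by its identifier FBgn0259234 had 750, 1225 and 1103 in AD and 1578, 1913 and 1648 in WT, a log2 fold change of −0.74 (SE 0.20).

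Receptors for neural signals were also among the lower genes that separated the groups. *5-HT1B*, a serotonin receptor of mushroom body and clock neurons, had normalized counts of 195, 264 and 214 in AD and of 272, 412 and 389 in WT. The gap between the groups was narrow, from 264 to 272, and the log2 fold change was −0.67 (SE 0.25, edgeR adjusted p = 0.985). *MsR2*, a receptor for the peptide myosuppressin, had 396, 295 and 286 in AD and 430, 539 and 421 in WT, a log2 fold change of −0.50 (SE 0.20). *Pms2*, a DNA mismatch repair protein, had 136, 96.6 and 96.3 in AD and 147, 195 and 194 in WT, with a log2 fold change of −0.69 (SE 0.22) that came almost wholly from replicates 2 and 3, since replicate 1 differed by −0.10 against −1.0 and −0.99.

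Other genes ranked high on the lower side because of WT replicate 1 alone. *CG8136* had 430 normalized counts in that library and between 15.4 and 30.2 in the other 5. *MCPH1*, the fly microcephalin gene, had 817 there against 306 to 386 elsewhere. *CG8701* had 1374 there, 13.5 in AD replicate 1 and at most 2.55 in the rest. It passed the edgeR threshold once the processing run was a term of the fit, as did *CG9133*, *CG12861*, *CG4836*, *S-Lap2*, *S-Lap3* and *S-Lap4*, and these 7 genes had 870 to 5533 normalized counts in WT replicate 1 and at most 82.0 in the other libraries. WT replicates 2 and 3 did not share these levels.

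**Figure D3:**
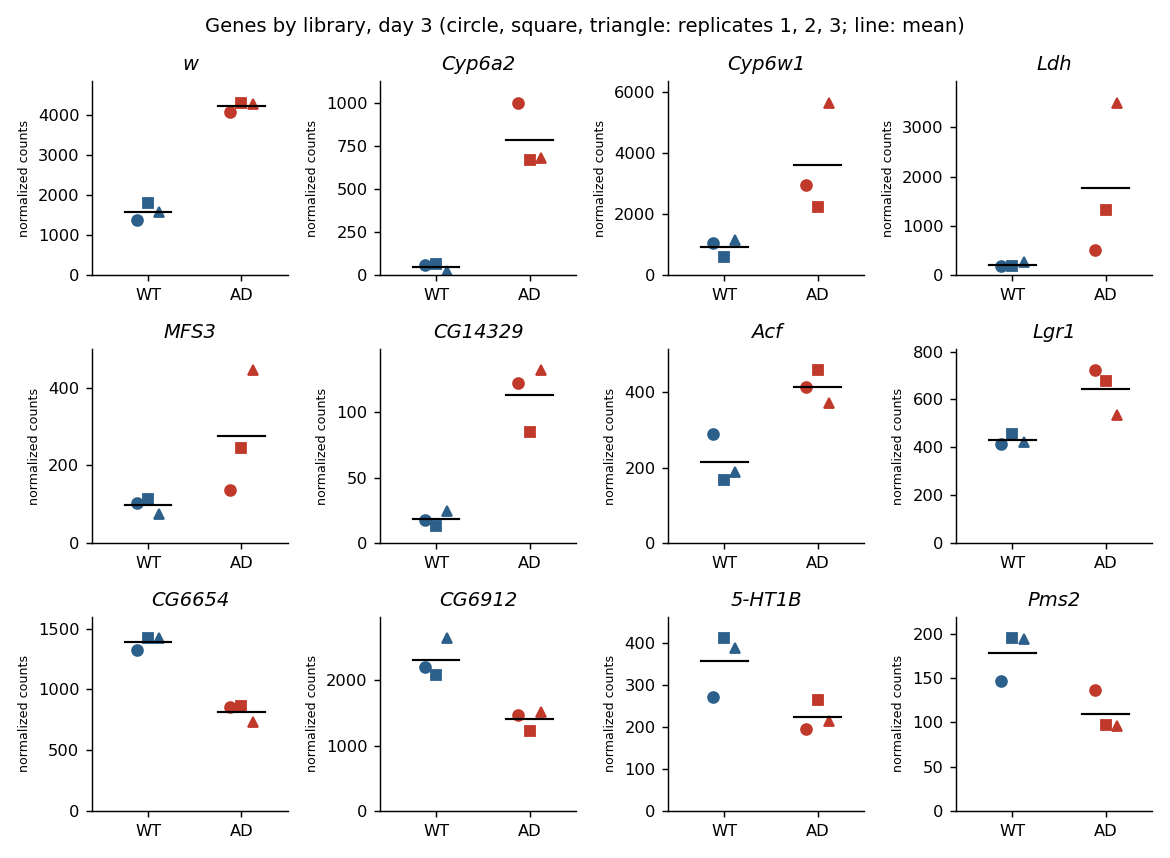
Normalized counts of 12 genes in each day 3 library (y axis, starting at 0), with circles, squares and triangles for replicates 1, 2 and 3 and a line at the group mean. The groups do not overlap in any panel, the replicates of *w* and *CG6654* lie close together, and AD replicate 3 of *Ldh* reaches 3497 against 521 in AD replicate 1.

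The cytochrome P450 family was the only one of 43 gene lists with more than 1 member past the threshold, which only 3 genes passed in all. Of its 81 genes 74 were tested, and 2 passed the threshold, both higher, against 0.0286% of all tested genes. An unadjusted edgeR p below 0.05 was found for 7, against 3.55% of all tested genes. Every AD library was above every WT library for 4 members and below for 1, against 1.78% and 1.79% of all tested genes. The median log2 fold change was 0.083, with 47 positive and 27 negative, against 0.00053 over all tested genes. *Cyp304a1* had normalized counts of 30.1, 42.8 and 34.3 in AD and of 8.37, 5.80 and 11.5 in WT, a log2 fold change of 2.05 (SE 0.63) without passing the threshold (edgeR adjusted p = 0.966). *Cyp309a2* had 140, 113 and 153 in AD and 20.6, 38.3 and 51.0 in WT, a log2 fold change of 1.91 (SE 0.65, edgeR adjusted p = 0.966). The member on the other side was *Cyp12a5*, with 135, 142 and 171 in AD and 232, 204 and 228 in WT and a log2 fold change of −0.57 (SE 0.18). Glutathione S-transferases, the conjugating enzymes that often accompany P450 enzymes in detoxification, had a median log2 fold change of 0.0010. Of their 34 tested members 0 had an unadjusted p below 0.05 in edgeR, against 3.55% of all tested genes. Among 17 antioxidant enzymes the median was 0.070, with 13 positive and 4 negative and 0 at an unadjusted edgeR p below 0.05. At a share of 3.55%, lists of these sizes may well hold none.

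Genes of the endoplasmic reticulum stress response, which supply chaperones when unfolded proteins build up in the secretory pathway, had small positive differences. Of 21 members, 17 were positive and 4 negative with a median log2 fold change of 0.058, and none passed the edgeR threshold. None had an unadjusted edgeR p below 0.05, against 3.55% of all tested genes, a share at which so short a list may well hold none. In 3 members every AD library lay above every WT library, against 1.78% of all tested genes. *Hsc70-3*, the fly BiP chaperone, had normalized counts of 6253, 7184 and 8452 in AD and of 4933, 4476 and 4419 in WT. The log2 fold change was 0.66 (SE 0.54, edgeR adjusted p = 1.0), with 0.34, 0.68 and 0.94 within the replicate numbers. *Gp93*, the chaperone GRP94, had 3648, 3815 and 4241 in AD and 2880, 2380 and 2462 in WT, a log2 fold change of 0.60 (SE 0.37). *Herp*, which takes part in the removal of misfolded proteins, had 1554, 1535 and 1586 in AD and 1387, 1325 and 1347 in WT, a log2 fold change of 0.20 (SE 0.13).

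Cytosolic heat shock genes gave a mixed result. Of 24 tested members 10 were positive and 14 negative, with a median of −0.023. The lowest, *Hsc70-2* at −4.24, was among the genes high in WT replicate 1. An unadjusted edgeR p below 0.05 was found for 2, against 3.55% of all tested genes. *Hsp70Bc* had normalized counts of 447, 551 and 653 in AD and of 97.9, 181 and 167 in WT, a log2 fold change of 1.90 (SE 0.68, edgeR adjusted p = 0.966). The Hsp70 genes are near-identical copies between which the estimation of counts can divide reads, so a single copy is uncertain. *Hsp70Bb*, for example, had 23.7, 168 and 302 in AD and 43.8, 30.2 and 67.6 in WT, with replicate 1 on the other side. Summed over 6 copies, CPM were 49.4, 60.4 and 77.8 in AD and 35.7, 33.4 and 44.0 in WT, so that the groups did not overlap and the within-number differences were 0.47, 0.86 and 0.82 log2. The proteasome, with 38 tested subunits, and the autophagy and lysosome list, with 25, had medians of −0.021 and 0.071. Both had 0 members at an unadjusted p below 0.05 in edgeR, against 3.55% of all tested genes.

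Markers and functional genes of neurons had small differences between the genotypes at this age. Of 23 tested genes of neurons and synapse none had an unadjusted p below 0.05 in edgeR. Of all tested genes 3.55% did, a share at which a list of this size may well hold none. The log2 fold changes of the list ran from −0.22 to 0.11, and the median was 0.031. Within the replicate numbers the medians were −0.18, 0.019 and 0.20, which changed sign. The 25 nicotinic receptors and voltage-gated channels behaved likewise, with medians of −0.20, −0.088 and 0.19. In bulk RNA from whole heads, fewer cells of a type and less RNA per cell cannot be told apart. Medians were 0.065 for 17 glial genes, 0.031 for 31 genes of rhodopsins and phototransduction and 0.0031 for 14 clock genes. For 16 genes of transmitter synthesis and transport the median was −0.0089. These lists had 0 members at an unadjusted p below 0.05 in edgeR, against 3.55% of all tested genes, and were likewise short.

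In no tested gene that processes amyloid or relates to tau did every AD library lie beyond every WT library. Of all tested genes 1.78% lay above and 1.79% below, shares at which a list of this size may well hold none. Among 15 tested members 8 were positive and 7 negative, with a median of 0.0073. None had an unadjusted p below 0.05 in edgeR, against 3.55% of all tested genes. *Appl*, the fly homologue of the amyloid precursor protein, had normalized counts of 7141, 13456 and 14542 in AD and of 10109, 14099 and 13164 in WT, and *tau* had 2001, 3154 and 3479 in AD and 2493, 3426 and 3171 in WT. For both genes replicate 1 of either genotype was the lowest, and the ranges overlapped. *Nep5*, of the neprilysin family of peptidases that includes amyloid-degrading members, had 19.2, 12.1 and 5.28 in AD and 38.6, 15.1 and 17.9 in WT, and *aph-1*, a subunit of gamma-secretase, had 264, 329 and 323 in AD and 256, 241 and 281 in WT.

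The antimicrobial peptides, secreted effectors of the IMD and Toll pathways, were the immune list with negative differences throughout. All 14 tested antimicrobial peptide genes had negative log2 fold changes, from −2.0 to −0.30 with a median of −0.85. In 8 of them every AD library lay below every WT library, against 1.79% of all tested genes. An unadjusted edgeR p below 0.05 was found for 6, against 3.55% of all tested genes. None of the 14 passed the edgeR threshold (lowest adjusted p = 0.966). With the processing run as a covariate 1 of them passed. Their within-number medians were −1.03, −1.35 and −0.24. The upstream components of the IMD and Toll pathways, which carry the microbial signal to the nucleus, had a median of −0.040 over 22 genes. The bomanins and other Toll-induced peptides had a median of −0.16 over 19 genes, with 3 below in every library, against 1.79% of all tested genes. Either median changed sign in 3 of 9 alternatives and within 1 replicate number. The peptidoglycan recognition proteins and lysozymes had a median of −0.00060 over 17 genes, with 8 positive and 9 negative. In 2 every AD library lay below every WT library, against 1.79% of all tested genes. The highest was *LysS*, at a log2 fold change of 2.54. It had normalized counts of 1.92, 5.49 and 39.6 in AD and of 2.58, 2.32 and 1.28 in WT, so the value rested mainly on AD replicate 3. *TotM*, a secreted stress peptide of the Turandot family, had normalized counts of 142, 80.2 and 79.1 in AD and of 240, 632 and 341 in WT, a log2 fold change of −1.98 (SE 0.77, edgeR adjusted p = 1.0).

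Odorant-binding proteins carry odorants to the receptors of antennal neurons, and 4 of 32 tested members were below WT in every AD library and 0 above, against 1.79% and 1.78% of all tested genes. *Obp83a* had normalized counts of 20.5, 17.6 and 31.7 in AD and of 62.5, 66.1 and 79.1 in WT, a log2 fold change of −1.59 (SE 1.06). Its genomic neighbour *Obp83b* had 3.84, 9.88 and 18.5 in AD and 25.8, 29.0 and 43.4 in WT, with −1.69 (SE 1.18). *Obp99d* had 23.7, 24.2 and 26.4 in AD and 59.2, 76.6 and 45.9 in WT, with −1.29 (SE 0.56). The fit takes its spread from all ages, and none of the 3 passed the edgeR threshold (adjusted p = 1.0). The list as a whole was balanced, with 15 positive and 17 negative and a median of −0.050.

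Energy metabolism showed the pattern of single genes. Of 18 glycolytic genes 15 were positive, but the median was 0.050. *Ldh* was the only member at an unadjusted edgeR p below 0.05, against 3.55% of all tested genes. The 71 tested nuclear genes of oxidative phosphorylation had a median of 0.036, and the 83 cytosolic ribosomal protein genes one of 0.031. All 11 tested genes of the mitochondrial genome had positive log2 fold changes, with a median of 0.24 and within-number medians of 0.43, 0.068 and 0.36. None had an unadjusted p below 0.05 in edgeR, against 3.55% of all tested genes. Mitochondrial transcripts made up 4.53%, 8.55% and 12.02% of counts in AD replicates 1, 2 and 3 and 4.29%, 7.89% and 9.69% in WT, so that the difference between replicates of a genotype was larger than that between genotypes.

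**Figure D4:**
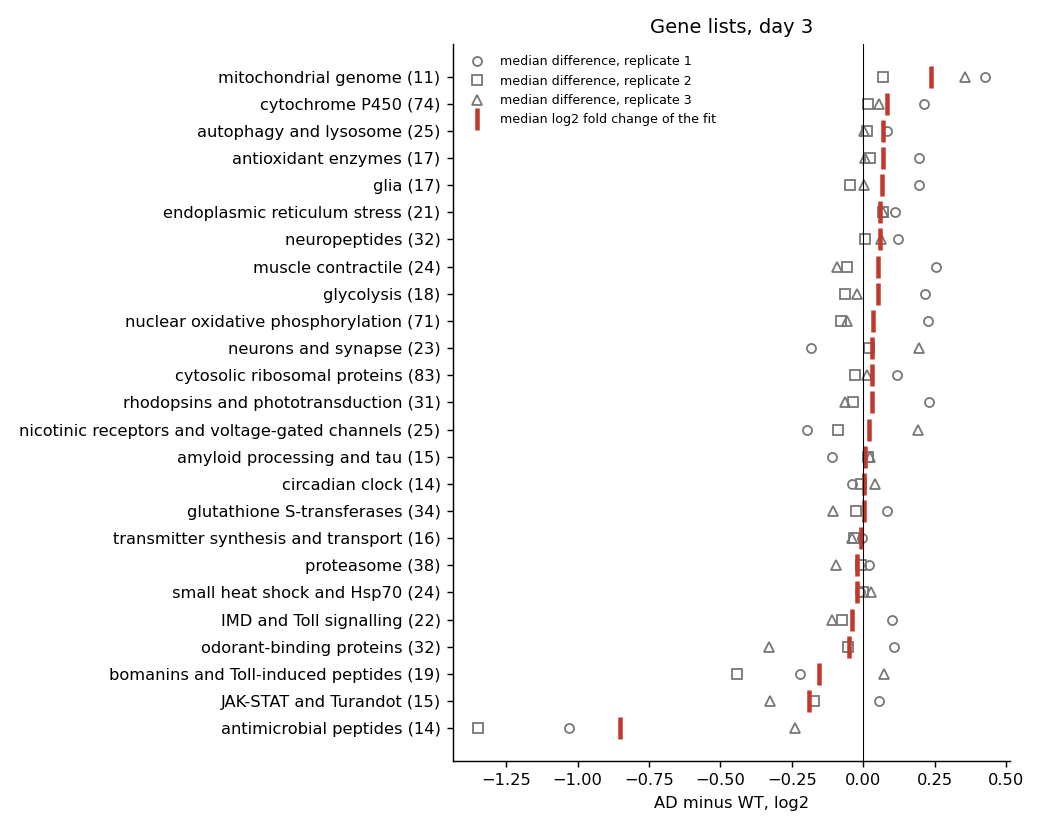
Median AD minus WT difference, in log2, of 25 gene lists at day 3, with the number of tested members in parentheses. Open symbols are medians within replicates 1, 2 and 3 and the red bar is the median log2 fold change of the fit. Most medians shown lie near 0, while the antimicrobial peptides lie at −0.85 and the mitochondrial genome at 0.24. Other lists are not shown, among them those of tissues in which single libraries stood apart. Their medians were −3.23 for testis and accessory gland, −1.60 for yolk and female head fat body and 0.83 for gut enzymes.

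The later time points are separate libraries of the same genotypes, and they tell which of the day 3 differences recurred. The groups also differ there by the same insertion and background, and replicate 1 of days 10 and 20 came from the other processing run as well. Of the 187 genes above WT at day 3, 44, 37 and 43 were again above in every library at days 10, 20 and 30, that is 23.5%, 19.8% and 22.99%, against 3.63%, 5.11% and 12.2% of all tested genes, and 3, 5 and 5 were below. Of the 188 genes below WT at day 3, 33, 21 and 18 were again below in every library (17.6%, 11.2% and 9.57%, against 2.86%, 3.81% and 11.995% of all tested genes), and 4, 14 and 14 were above. The number of genes past the edgeR threshold was 3 at day 3 and 18, 10 and 2 at days 10, 20 and 30. At an unadjusted edgeR p below 0.05 there were 372, 320, 464 and 824 genes on these days. The count past the threshold was thus lowest on the day with most genes at that p. The fit takes its spread from all ages, so the spread at day 30 also enters the day 3 p-values.

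Separation on all 4 days held for 13 higher and 7 lower genes. *w* was higher by 1.77, 1.44 and 0.82 log2 at days 10, 20 and 30 (edgeR adjusted p = 1.14e-04, 0.00246 and 0.119). Its AD mean was 4238 normalized counts at day 3 and 4002, 3267 and 2544 at the later days. The SD of these AD libraries (n = 3) was 122 at day 3 and 230, 261 and 895 later. *Cyp6a2* was higher by 4.36, 3.83 and 3.42 log2 (edgeR adjusted p = 0.00373, 0.00819 and 0.0471) and passed the threshold at every age. *Cyp6w1* was higher by 1.90, 1.52 and 1.28 log2, of which only day 10 passed (edgeR adjusted p = 0.0191, 0.0894 and 0.233). *Ldh* was higher by 3.90, 2.94 and 2.43 log2 (edgeR adjusted p = 0.0157, 0.0841 and 0.222), and its AD mean of 1778 at day 3 stood beside 4100, 4489 and 2900 at the later days. At day 30 the AD libraries also spread widely for *Cyp6a2* (431 ± 335), *Ldh* (2900 ± 1980) and *MFS3* (690 ± 398, SD, n = 3). Whether these differences become smaller with age was not tested.

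The other higher genes of this set were *MFS3*, *Acf*, *CG8012*, *CG6428*, *CG31549*, *Sam-S*, *CG3036*, *Gmppb* and *Syx18*. *MFS3* was higher by 2.70, 2.15 and 1.60 log2 at the later days, past the edgeR threshold at days 10 and 20 (adjusted p = 0.0122 and 0.0429). *Sam-S*, which makes the methyl donor S-adenosylmethionine, had normalized counts of 5308, 5702 and 6465 in AD and of 4584, 4986 and 5192 in WT at day 3, a log2 fold change of 0.24 (SE 0.11). *Syx18*, a syntaxin of the endoplasmic reticulum, differed by 0.12 log2 at day 3 and by 0.38 to 0.43 later. *CG14329* missed the set through overlap at day 30, with differences of 3.84, 3.72 and 3.19 log2 at the later days.

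On the lower side the 7 genes were *CG6654*, FBgn0259234, *CG6912*, *5-HT1B*, *MsR2*, *Ssdp* and *CG6118*. *CG6654* differed by −0.79, −0.87 and −0.47 log2 at the later days, and *5-HT1B* by −0.79, −0.57 and −0.72. *Ssdp*, which binds the LIM-domain cofactor Chip, had a log2 fold change of −0.41 (SE 0.19) at day 3. *CG6118* had normalized counts of 20.5, 23.1 and 1.32 in AD and of 39.9, 70.8 and 33.2 in WT at day 3, a log2 fold change of −1.65 (SE 0.87) that was −2.76, −2.71 and −2.36 later. None of the 7 passed the edgeR threshold on any day.

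Of the day 3 differences named, some did not recur. *Lgr1* differed by 0.58 log2 at day 3 and by 0.13, 0.12 and −0.14 later, and *CG17005*, with 17.3, 22.0 and 14.5 normalized counts in AD and 61.2, 60.3 and 38.3 in WT at day 3, went from −1.57 log2 to −1.07, 0.49 and 0.082. *Ero1L*, the oxidase that forms disulfide bonds in the endoplasmic reticulum, went the other way, with 0.24 log2 (SE 0.16) at day 3 and 0.83, 0.81 and 0.80 later. *Hsc70-3* likewise differed by 0.66 at day 3 and by 1.32, 1.10 and 1.47 later. A contrast of the day 3 difference with the mean of the later 3, tested by edgeR over all genes, had an unadjusted p of 0.0102 for *Lgr1*, 0.0056 for *Ero1L* and 0.322 for *Hsc70-3*. It passed the adjusted threshold for 0 genes, with 397 at an unadjusted p below 0.05, while DESeq2 gave 25 past its adjusted threshold and 399 at that p.

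**Figure D5:**
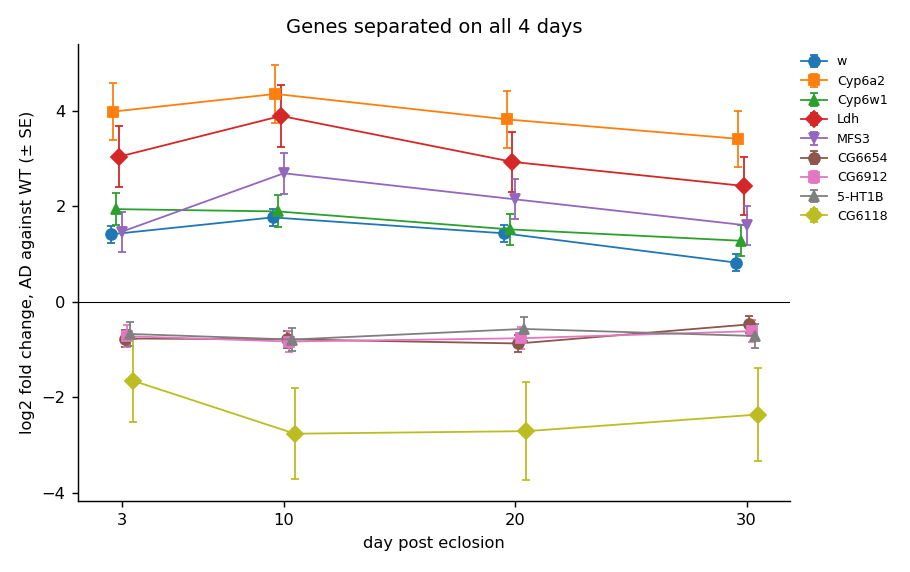
Log2 fold change of AD against WT (y axis, ± SE of the fit) by day after eclosion (x axis) for 9 of the genes whose groups did not overlap on any day. *Cyp6a2* stays between 3.42 and 4.36, *w* goes from 1.42 at day 3 to 0.82 at day 30, and the 4 lower genes stay below 0. At day 30 the AD libraries of *w* and *Cyp6a2* spread widely (SD of 895 and 335 normalized counts, n = 3).

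The separated genes were spread over the chromosome arms. At day 3 the share of tested genes with groups that did not overlap, in either direction, was 2.73% on X, 4.09% on 2L, 3.24% on 2R, 3.13% on 3L and 4.49% on 3R, and 0 of 77 on chromosome 4. A 1 Mb window of 3R from 15000001 to 16000000 held 10 such genes of 111 tested, which is 9.01%, and 3 of the 7 genes that were lower on all 4 days, *CG6912*, *CG6654* and *CG6118*. It is named for these 3 genes, and other windows had like or higher shares, such as 4 of 32 on 2L from 17000001 to 18000000 (12.5%) and 6 of 62 on 2L from 12000001 to 13000000 (9.68%), without a gene separated on all days. The window of 2R from 6000001 to 7000000 held 4 of 81 and both P450 genes past the threshold. The insertion site of the transgene was not analysed here, and the part of linked background in these values was not tested.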

How the data were processed

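Head poly-A RNA was sequenced in 24 libraries. The authors aligned filtered reads to the *Drosophila melanogaster* release 6 genome (HISAT2 2.0.4) and estimated expected counts and FPKM per gene with RSEM, and deposited 1 file per library. Genes not listed were set to 0, genes added by the authors (0.287% to 0.587% of day 3 counts) were left out, and expected counts were rounded. The deposited FPKM served only for the limma alternatives, on log2(FPKM + 1) and log2(FPKM + 0.1). Of 13700 identifiers, 13550 matched the Ensembl annotation.

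Genes with low counts were removed with edgeR's default filter, and AD was compared with WT in the 8 groups of genotype and day (edgeR 4.0.16, residual df 16, common biological coefficient of variation 0.314, R 4.3.3). The depth gives counting intervals far narrower than that spread for all but low genes. The scripts were tested on simulated data. Alternatives were DESeq2 1.42.0, limma 3.58.1, other filters and scalings, a replicate block, the processing run as a covariate, the 6 libraries alone and each library left out. Tables and figures used Python 3.11.15, numpy 2.4.6, pandas 2.3.3 and matplotlib 3.10.9. No 2 libraries of a group differed by as little as sampling noise.

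Named were genes past the threshold, the 10 of smallest p in each direction with separated groups, 1 sign within numbers and a mean of at least 50 normalized counts, up to 3 per list, check genes, and genes past the threshold with the block or run. Genes more than 1 log2 apart in all numbers, those separated on all days, *CG42329*, *Obp83a*, *Obp83b* and further genes of the stand-apart libraries were chosen after their values were seen. The comparison and the lists were chosen with earlier results of these data known.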

Additional observations from a re-analysis of the deposited data

Results flagged for a closer look

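*Obp83b*, an odorant-binding protein of the antenna, was lower in every AD library than in every WT library at day 3 (log2 fold change −1.69) and higher in every AD library at day 20 (log2 fold change 2.51). This opposition was not tested between these days. In the edgeR contrast of day 3 with the mean of the later days its unadjusted p was 0.025 and did not pass after adjustment.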

How the results depend on the processing

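The count of 3 genes past the threshold was also 3 with relative log expression scaling, with no or a stricter filter on counts, with limma, with the adjusted p alone, and without the 286 genes high in WT replicate 1 (chosen after seeing the data). It was 0 when only the 6 day 3 libraries were fitted, 0 without both libraries of the first processing run, and 0 without WT replicates 1 and 2 (chosen after seeing the data). It was 5 with the replicate block (adding *CG9133* and *S-Lap4*), 4 with the block in the 6 day 3 libraries (*w*, *Cyp6a2*, *Hsp70Bc* and 1 antimicrobial peptide gene, each at adjusted p = 0.0472), 12 with the processing run as a covariate and 10 with DESeq2, and the cause was not tested. Leaving out 1 library gave 0 to 4 genes, with 0 without WT replicate 1 and 0 without WT replicate 3. Same-numbered AD and WT libraries deviated together for numbers 1 and 3 but hardly for number 2 (r of 0.478, 0.0882 and 0.646), and WT replicate 2 correlated best with AD replicate 3, so the numbers were not taken as pairs and the block remains an alternative. The day 3 against later contrast gave 1 gene with the block, 8 with the run, 25 with DESeq2 and 0 to 1 on leaving out a library. Separated genes numbered 187 above and 172 below without the 286 genes. Their counts become larger by construction with fewer libraries: 393 to 754 above and 457 to 676 below on leaving out 1, and 991 above and 1212 below without the first run. The 46 genes examined one by one kept their direction in all 920 alternatives. For most of them the groups did not overlap at day 3, so leaving out a library could not turn their direction. Of the 920, 896 were on the same side of the threshold, 18 no longer past it and 6 newly past it. As only 3 genes passed in the main fit, most of the 896 were genes that stayed short of the threshold. Differences of genes removed by the filter on low counts were not tested in the main fit, and values of tested genes with few counts are less certain.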
